A study of Mus musculus with 4 samples.

Results

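Toll-like receptors are the transmembrane sensors by which macrophages detect parts of microbes. The part of the transcriptome described here is the 8 Toll-like receptor genes Tlr1, Tlr2, Tlr4, Tlr6, Tlr7, Tlr8, Tlr9 and Tlr13, with Cd14 and Ly96, the genes of their lipopolysaccharide co-receptors. These 10 genes were chosen by symbol, and each stood on a single locus of the 23735 in the table. All 10 averaged 1 FPKM or more over the 4 libraries (fragments per kilobase of transcript, scaled to the mapped fragments of the library), as did 10074 loci in all, which were the loci tested. RNA was sequenced from cultured peritoneal macrophages of C57BL/6 mice 6 weeks old, collected 3 days after an injection of 3% thioglycolate, a sterile irritant that draws macrophages into the cavity. The Ch25h_WT group was labelled ApoE-/-/Ch25h+/+ and the Ch25h_KO group ApoE-/-/Ch25h-/-, so every library was labelled as lacking apolipoprotein E. Ch25h encodes the enzyme that makes 25-hydroxycholesterol, and the comparison asked which transcripts differ when it is deleted on that background. Each group held 2 libraries, described as biological duplicates from 12 mice per group, and the labels do not say how the mice were divided between the libraries. The p-values therefore speak only of the variation seen among these 4 libraries, which may be partly technical.

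Toll-like receptors work in 2 places. TLR4 with MD-2 (the product of Ly96) recognises lipopolysaccharide handed over by CD14, and TLR2 pairs with TLR1 or TLR6 to recognise bacterial lipopeptides, all at the cell surface. TLR7, TLR8, TLR9 and TLR13 sit in endosomes and respond to nucleic acids: single-stranded RNA for TLR7 and TLR8, unmethylated CpG DNA for TLR9, and a bacterial ribosomal RNA sequence for TLR13, which humans lack. Ligand binding recruits the adaptors MyD88 and TRIF, which lead to NF-kB and interferon regulatory factors and so to cytokine genes.

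None of the 10 genes passed the threshold between the genotypes (limma, Benjamini-Hochberg adjusted p under 0.05 over all tested loci), against 0.437% of all tested loci. The estimates went in opposite directions within the family. Cd14 and Tlr8 had the largest differences on the higher side in Ch25h_KO and Tlr1 the largest on the lower side. Those of Tlr4 and Tlr7 were -0.06 and 0.02 on the log2(FPKM + 1) scale. At unadjusted p under 0.05 there were 5 of the 10 genes, 2 higher (Cd14 and Tlr8) and 3 lower (Tlr1, Tlr9 and Tlr13), against 20.9% of all tested loci (9.38% higher and 11.5% lower). The libraries of the groups did not overlap for 8 of the 10 genes, 3 on the higher side and 5 on the lower, against 53.7% of all tested loci (23.4% higher and 30.3% lower). The median difference of the 10 genes was -0.07, beside -0.01 for all tested loci.

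The deposited values rest on an implied depth of 9540000 to 12400000 fragments per library, recovered from the steps of low values. Ch25h was 63.3 and 65.3 FPKM in Ch25h_WT against 4.25 and 5.53 FPKM in Ch25h_KO. Apoe was 614 and 610 against 3683 and 3373 FPKM although all libraries were labelled ApoE-/-, so the groups also differed in signal at Apoe, and the parts of the 2 loci in any difference below cannot be told apart. The macrophage label was met: Adgre1 (F4/80, listed as Emr1) was 381 to 425 FPKM, Csf1r 274 to 316 FPKM and Lyz2 19566 to 20537 FPKM. Without Cd14 and Lyz2, the 8 other macrophage markers summed to 2082 and 2138 FPKM in Ch25h_WT and to 1898 and 1990 FPKM in Ch25h_KO. Of the 9 macrophage markers other than Cd14 none passed, and 7 estimates were lower, with the largest for Lgals3 at 270 and 284 against 196 and 198 FPKM (difference -0.49, limma adjusted p = 0.066). In bulk samples, fewer cells of a type and less RNA per cell cannot be told apart.

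**Figure D1:**
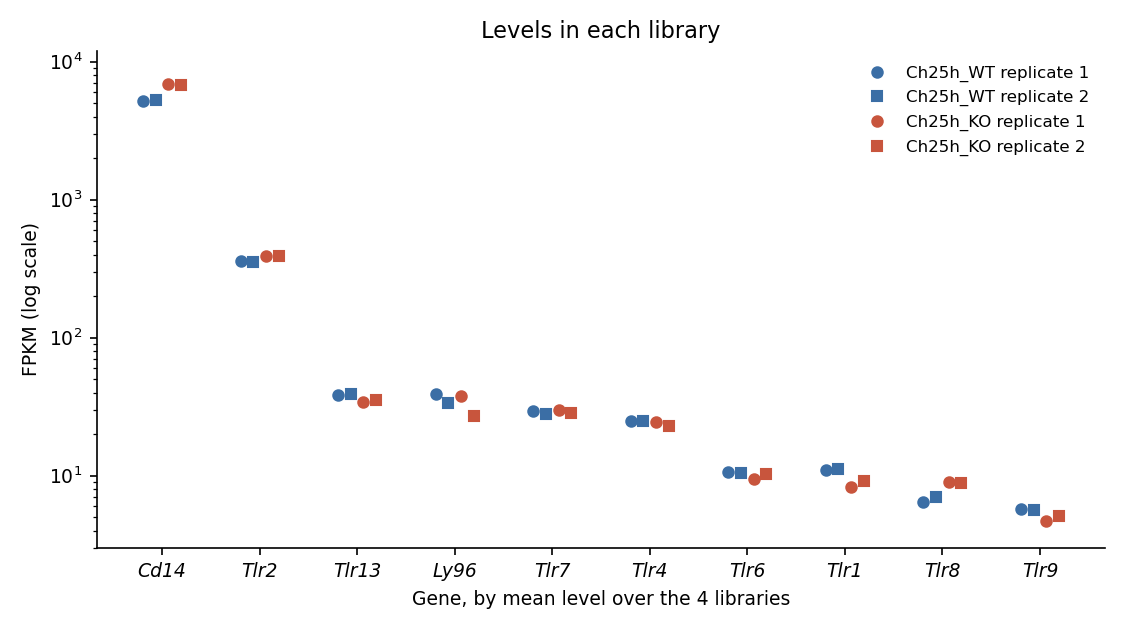
FPKM of the 10 genes on a log axis, ordered by mean level, with 1 point per library (blue Ch25h_WT, red Ch25h_KO; circles replicate 1, squares replicate 2). Cd14 lies at 5178 FPKM or more in every library, Tlr2 between 356 and 388 FPKM, and the other 8 genes below 40 FPKM.

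The levels covered about 3 orders of magnitude in every library. Cd14 was the most abundant, ranking 9, 9, 6 and 5 among all 23735 loci in Ch25h_WT replicates 1 and 2 and Ch25h_KO replicates 1 and 2. Tlr2 was next, between rank 223 and 243, and alone held 73.8% to 76.4% of the summed FPKM of the 8 Toll-like receptors. Below these came Tlr13, Ly96 and Tlr7, with Tlr13 above Tlr7 in all 4 libraries, at 1.14 to 1.40 times its FPKM. Ly96 changed places with both, so its place was not beyond the spread. Tlr4 came after these 3 genes in all 4 libraries. Tlr1, Tlr6 and Tlr8 came next and Tlr9 was lowest in all 4 libraries. The order within that group went with genotype, with Tlr1 above Tlr6 and Tlr8 in both Ch25h_WT libraries and Tlr6 above Tlr1 and Tlr8 in both Ch25h_KO libraries. Tlr1 and Tlr6 lay close together in Ch25h_WT (11.1 and 11.2 against 10.6 and 10.4 FPKM). Their counting errors were up to 6.2% and 5.3%, so their order there is uncertain.

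Promoter sequence is shown for the receptor with the largest difference in each direction, Tlr8 and Tlr1, and for Tlr2, the most abundant receptor. Of the 10 genes, 6 (Tlr1, Tlr2, Tlr6, Tlr8, Tlr9 and Tlr13) were searched. Their entries came from the RefSeq promoter table of GRCm38.p6, another build than the mm9 of the expression values. Entries on a single chromosome, that of Cd14, were left out beforehand, so Cd14 is not shown to lack an entry. Tlr4, Tlr7 and Ly96 had no entry under these symbols. The 250 bases before each annotated start were searched on both strands for the core letters GAGGAA bound by PU.1, the factor that specifies macrophages, and for the NF-kB consensus. The PU.1 core was found in Tlr1, Tlr8, Tlr9 and Tlr13, that is in 4 of these 6 genes, beside 25.9% of all genes in the table, and the NF-kB consensus in Tlr2, beside 8.23% of all genes. Capitals mark the matches, all else is lower case, and each sequence runs 5′ to 3′ and ends at the base before the start. The Tlr1 sequence is the one of its 2 entries that holds a match. In Tlr2 the capitals are 2 overlapping NF-kB matches, which begin 173 and 172 bases before the start. A match is a description of letters and not of binding.
Tlr8 (chrX:167264330-167264579, minus strand): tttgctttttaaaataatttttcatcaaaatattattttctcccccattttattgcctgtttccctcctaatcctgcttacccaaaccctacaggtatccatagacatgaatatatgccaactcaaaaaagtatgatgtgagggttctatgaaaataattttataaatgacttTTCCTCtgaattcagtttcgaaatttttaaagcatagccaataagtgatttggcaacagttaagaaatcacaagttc
Tlr1 (chr5:64933559-64933808, minus strand): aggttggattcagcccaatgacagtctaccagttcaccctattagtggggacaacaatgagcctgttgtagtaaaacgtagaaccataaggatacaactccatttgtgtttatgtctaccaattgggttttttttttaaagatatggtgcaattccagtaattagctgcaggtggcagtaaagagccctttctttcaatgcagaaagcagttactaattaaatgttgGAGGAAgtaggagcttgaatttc
Tlr2 (chr3:83841609-83841858, minus strand): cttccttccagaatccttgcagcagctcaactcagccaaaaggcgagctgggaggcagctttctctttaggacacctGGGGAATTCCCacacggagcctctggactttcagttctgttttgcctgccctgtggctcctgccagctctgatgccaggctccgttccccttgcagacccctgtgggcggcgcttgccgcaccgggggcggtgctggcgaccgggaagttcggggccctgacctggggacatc

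Among the lipopolysaccharide receptors, the co-receptor Cd14 stood apart from Tlr4 and Ly96. Cd14 was 5178 and 5288 FPKM in Ch25h_WT replicates 1 and 2, and 6870 and 6751 FPKM in Ch25h_KO replicates 1 and 2. Both Ch25h_KO libraries lay above both Ch25h_WT libraries, and the gap exceeded the range within either group. The means were 5233 ± 77.98 and 6810 ± 83.75 FPKM (SD, n = 2 libraries per group), a ratio of 1.30 and a difference of 0.38 on the log2(FPKM + 1) scale (SE 0.052, 95% interval 0.24 to 0.52, limma adjusted p = 0.078). It passed when the test was limited to loci averaging 5 FPKM or more (limma adjusted p = 0.039) and with limma's trend and robust options (limma adjusted p = 0.00031). In these settings 2.42% and 7.8% of all tested loci passed. Over all 12 alternatives its adjusted p lay between 0.00031 and 0.33. Its share of all FPKM was 0.739% and 0.747% in Ch25h_WT and 0.940% and 0.942% in Ch25h_KO.

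Tlr4 was 24.72 and 24.97 FPKM in Ch25h_WT and 24.6 and 22.9 FPKM in Ch25h_KO. Both Ch25h_KO libraries lay below both Ch25h_WT libraries, replicate 1 only just. The difference was -0.06 (SE 0.060, 95% interval -0.22 to 0.09, limma adjusted p = 0.59). Ly96, the gene of the small secreted partner MD-2, was 38.9 and 33.4 FPKM in Ch25h_WT and 38.1 and 27.0 FPKM in Ch25h_KO. The groups overlapped, the interval was the widest of the 10 (-0.63 to 0.31, limma adjusted p = 0.64), and the estimate of -0.16 became 0.08 without Ch25h_KO replicate 2. Its short transcript gave an implied 163 to 305 fragments per library, with a counting error of up to 7.8%. Within a library, Cd14 was 209 and 212 times Tlr4 in FPKM in Ch25h_WT and 280 and 294 times in Ch25h_KO. The ratio of Ly96 to Tlr4 was 1.58 and 1.34 in Ch25h_WT against 1.55 and 1.18 in Ch25h_KO, with replicate 2 the lower of each group.

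Tlr2 and its partners had estimates on opposite sides. Tlr2 was 357 and 356 FPKM in Ch25h_WT and 387 and 388 FPKM in Ch25h_KO. The libraries of a group nearly coincided, and the groups did not overlap, at a ratio of 1.09. The difference of 0.12 (SE 0.051, 95% interval -0.01 to 0.26) had a limma adjusted p of 0.27. Tlr1, which with TLR2 binds triacylated lipopeptides, was 11.1 and 11.2 FPKM in Ch25h_WT and 8.34 and 9.08 FPKM in Ch25h_KO. Both Ch25h_KO libraries were below both Ch25h_WT libraries, at 0.783 of their mean. The difference was -0.32 (SE 0.062, 95% interval -0.48 to -0.16, limma adjusted p = 0.11), and it passed only with the trend and robust options (limma adjusted p = 0.033; 0.033 to 0.35 over the 12 alternatives). Tlr6, which with TLR2 binds diacylated lipopeptides, was 10.6 and 10.4 FPKM in Ch25h_WT and 9.40 and 10.3 FPKM in Ch25h_KO. The groups were separated by only 0.1 FPKM, and the difference was -0.09 (SE 0.065, 95% interval -0.26 to 0.09, limma adjusted p = 0.50).

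Tlr1 and Tlr6 are neighbouring genes with similar coding sequence, and their levels carry that uncertainty. In GENCODE vM21 transcripts, 22.0% of the 25-base words of Tlr1 were also in Tlr6 and 15.3% of its 50-base words, while Tlr7 and Tlr8, the other neighbouring pair, shared none of either length. How fragments that fit both genes were counted is not given in the sources used here. Per library, the ratio of Tlr1 to Tlr6 was 1.04 and 1.07 in Ch25h_WT and 0.887 and 0.878 in Ch25h_KO. No exon of any of the 10 genes overlaps an exon of another gene in that annotation.

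**Figure D2:**
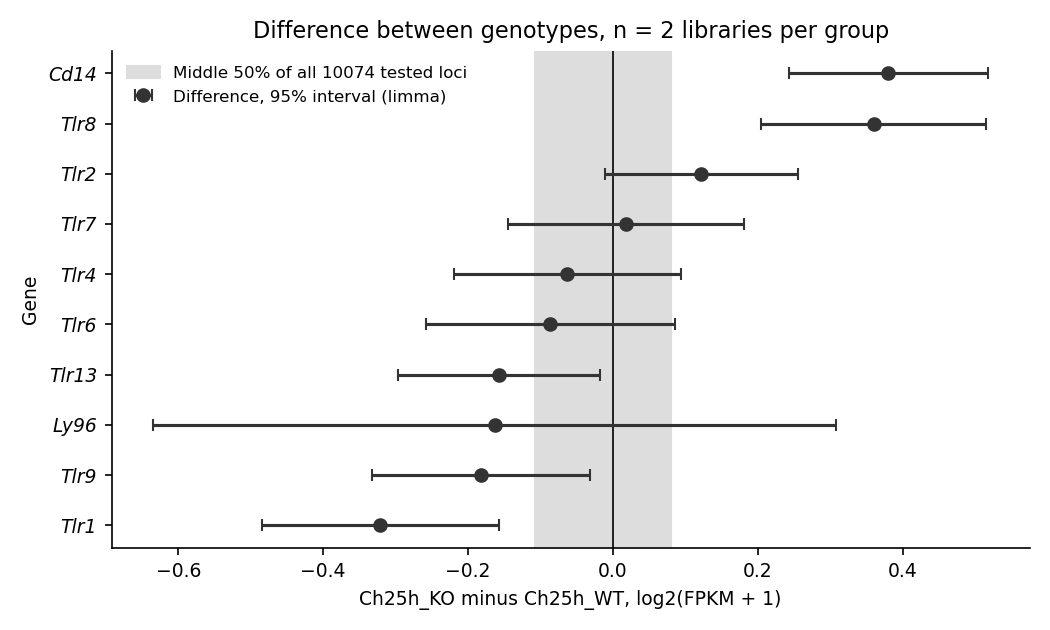
Ch25h_KO minus Ch25h_WT on the log2(FPKM + 1) scale for each gene (points) with the 95% interval from limma (bars), and the middle 50% of all 10074 tested loci in grey. The intervals of Cd14 and Tlr8 lie above 0 and those of Tlr1, Tlr9 and Tlr13 below 0, before any adjustment for the number of loci tested.

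Of the endosomal receptors, Tlr8 lay higher in Ch25h_KO, Tlr9 and Tlr13 lower, and Tlr7 overlapped. Tlr8 was 6.48 and 6.97 FPKM in Ch25h_WT and 8.96 and 8.86 FPKM in Ch25h_KO. Both Ch25h_KO libraries exceeded both Ch25h_WT libraries, at a ratio of 1.32. The difference of 0.36 (SE 0.059, 95% interval 0.20 to 0.52) had a limma adjusted p of 0.098. It passed among loci averaging 5 FPKM or more (limma adjusted p = 0.0496) and with the trend and robust options (limma adjusted p = 0.026; 0.026 to 0.32 over the 12 alternatives). These levels rest on an implied 237 to 314 fragments per library, with a counting error of up to 6.5%.

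Tlr7, beside Tlr8 on the X chromosome, was 29.4 and 28.0 FPKM in Ch25h_WT and 30.0 and 28.2 FPKM in Ch25h_KO. The replicates of each group differed by more than the group means did, and the difference was 0.02 (SE 0.062, 95% interval -0.15 to 0.18, limma adjusted p = 0.90). The ratio of Tlr8 to Tlr7 within a library was 0.220 and 0.249 in Ch25h_WT and 0.299 and 0.314 in Ch25h_KO. Tlr13 was 38.5 and 39.2 FPKM against 34.3 and 35.3 FPKM, and the groups did not overlap (difference -0.16, SE 0.053, limma adjusted p = 0.21). Tlr9 was 5.71 and 5.67 FPKM against 4.73 and 5.06 FPKM, again without overlap (difference -0.18, SE 0.057, limma adjusted p = 0.19). Tlr9 rests on an implied 168 to 246 fragments per library, with a counting error of up to 7.7%.

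Summed by place, the surface receptors Tlr1, Tlr2, Tlr4 and Tlr6 were 403 and 402 FPKM in Ch25h_WT and 430 and 430 FPKM in Ch25h_KO, a sum set mainly by Tlr2. The endosomal receptors Tlr7, Tlr8, Tlr9 and Tlr13 summed to 80.1 and 79.9 against 77.9 and 77.4 FPKM. The remaining mouse receptors were low or listed at 0 and were not tested. Tlr3, the receptor of double-stranded RNA, was 0.541 and 0.545 against 0.445 and 0.340 FPKM, an implied 14.3 to 29.6 fragments. Tlr5, the flagellin receptor, was listed at 0 except for 0.0583 FPKM in Ch25h_KO replicate 1. Tlr12 was at most 0.0969 FPKM, and Tlr11 was listed at 0 in all 4 libraries.

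**Figure D3:**
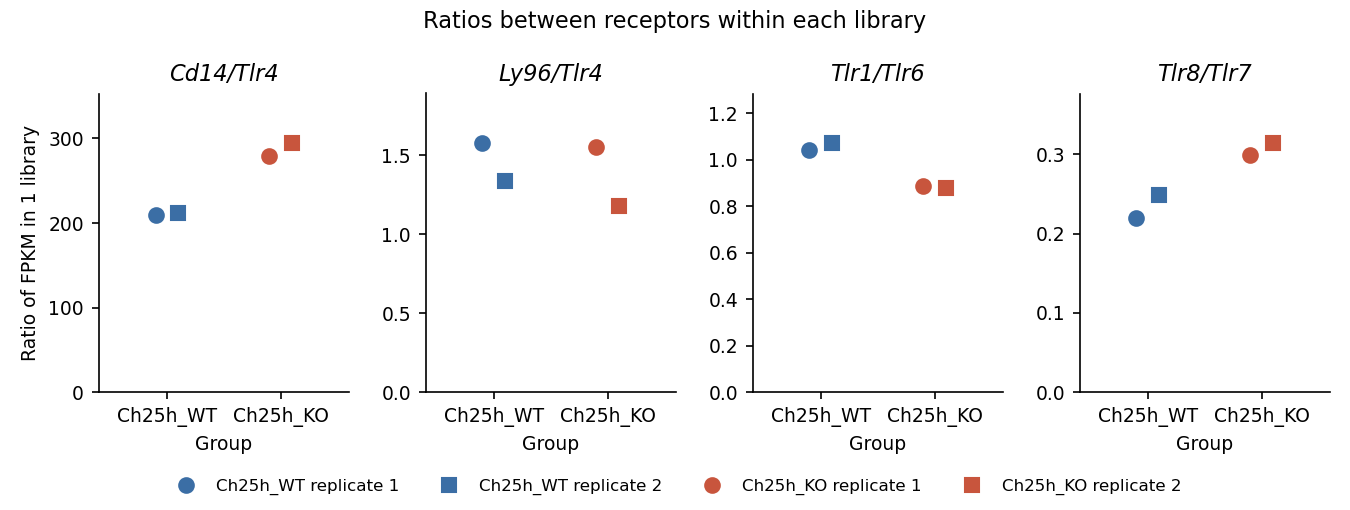
Ratio of the FPKM of 2 genes within each library, for Cd14 to Tlr4, Ly96 to Tlr4, Tlr1 to Tlr6 and Tlr8 to Tlr7 (axes start at 0; 1 point per library). The groups are separate for Cd14/Tlr4, Tlr1/Tlr6 and Tlr8/Tlr7 and overlap for Ly96/Tlr4. With 2 libraries per group no exact two-sided permutation test of a ratio can go below 0.333.

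Genes with the most similar profile over the 4 libraries were found for Cd14 and Tlr1, by the Euclidean distance of log2(FPKM + 1) centred on each gene, among 6855 loci averaging 5 FPKM or more that carried 1 symbol and were not predicted genes or short RNAs. Nearest to Cd14 were Zc3h12a (distance 0.021), which encodes an mRNA-degrading nuclease, Slc16a1 (0.034), a monocarboxylate transporter, and Csrp2 (0.038). Zc3h12a was 56.2 and 58.0 FPKM in Ch25h_WT and 74.1 and 73.2 FPKM in Ch25h_KO. Nearest to Tlr1 were Myo5a (0.012), which encodes a vesicle motor, Tpr (0.026), a nuclear pore protein, and Igf2r (0.033), the receptor that sorts lysosomal enzymes. Myo5a was 10.4 and 10.5 FPKM against 7.89 and 8.49 FPKM. None of the 6 passed (limma adjusted p 0.086 to 0.12). Their choice by likeness to Cd14 or Tlr1, which did not pass, largely fixed this in advance. In addition, 4 libraries are few for a likeness.

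Receptors need chaperones to leave the endoplasmic reticulum, and of 9 tested genes of chaperones and trafficking 0 passed, against 0.437% of all tested loci. At unadjusted p under 0.05 there were 3, against 20.9% of all tested loci. Hsp90b1, the gene of gp96, the chaperone of most Toll-like receptors, was 367 and 366 FPKM in Ch25h_WT and 264 and 267 FPKM in Ch25h_KO (difference -0.46, limma adjusted p = 0.066). Unc93b1, which carries the endosomal receptors to their compartment, lay on the other side, at 113 and 109 against 133 and 127 FPKM (difference 0.22, limma adjusted p = 0.15). Cnpy3, a partner of gp96, overlapped between groups at 43.9 to 48.9 FPKM. The list's median difference was -0.08.

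Of 10 tested accessory receptors 0 passed, and 3 had an unadjusted p under 0.05, against 20.9% of all tested loci. Estimates were lower for 9 and higher for 1, against 54.3% and 45.7% of all tested loci, and the median was -0.08. After the median-ratio scaling 7 were lower and 3 higher. Lbp, which carries lipopolysaccharide to CD14, was 44.9 and 45.6 FPKM in Ch25h_WT and 36.1 and 36.6 FPKM in Ch25h_KO, without overlap (difference -0.31, limma adjusted p = 0.099). This was the opposite side from Cd14. Clec7a (dectin-1) and the scavenger receptor Cd36, which work with TLR2, had differences of -0.26 and -0.22 (limma adjusted p = 0.13 and 0.14). Cd180, a Toll-like protein without a signalling domain that is best known in B cells, was 8.88 and 9.79 against 7.57 and 8.45 FPKM, and its partner Ly86 overlapped at 51.0 to 58.2 FPKM.

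The adaptors and proximal kinases centred near 0, with 0 of 28 tested genes past the threshold and a median of -0.03. At unadjusted p under 0.05 there were 4, against 20.9% of all tested loci. Myd88, the adaptor of nearly all these receptors, was 95.6 and 89.1 FPKM in Ch25h_WT and 91.0 and 90.0 FPKM in Ch25h_KO. Ticam1, which encodes TRIF, was 18.3 to 20.0 FPKM, Irak4 14.2 to 16.1 FPKM and Traf6 9.88 to 11.0 FPKM, and the groups of each overlapped. Tirap, the bridging adaptor of TLR2 and TLR4, had a difference of 0.03 and Ticam2, that of TRIF, of -0.17 (limma adjusted p = 0.75 and 0.33). The smallest p were those of Pik3ap1, an adaptor to PI3 kinase, at 103 and 106 against 73.7 and 75.9 FPKM (difference -0.48, limma adjusted p = 0.066), and Irf7, at 25.9 and 29.0 against 38.6 and 38.5 FPKM (difference 0.48, limma adjusted p = 0.097). Ikbkg, the gene of the kinase subunit NEMO, was 18.6 and 17.4 against 14.1 and 14.3 FPKM (limma adjusted p = 0.11).

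Among negative regulators 0 of 20 tested genes passed, and 5 had an unadjusted p under 0.05, near the 20.9% of all tested loci. Estimates were higher for 13 and lower for 7 (12 and 8 after quantile normalization, 14 and 6 after median-ratio scaling), against 45.7% and 54.3% of all tested loci, and the median was 0.04. Dusp1, a phosphatase of MAP kinases, was 242 FPKM in both Ch25h_WT libraries and 342 and 346 FPKM in Ch25h_KO (difference 0.51, limma adjusted p = 0.052). It passed after median-ratio scaling (limma adjusted p = 0.0487), among loci averaging 5 FPKM or more (0.021) and with the trend and robust options (0.00011). In the other alternatives, such as the replicate block (limma adjusted p = 0.16), Dusp1 did not pass. The next smallest p were those of Zc3h12a and Nlrx1, also higher in Ch25h_KO (differences 0.36 and 0.34, limma adjusted p = 0.088 and 0.12). After them came Il1rl1, the gene of the interleukin-33 receptor. It lay on the other side at 9.26 and 9.21 against 7.45 and 6.34 FPKM (limma adjusted p = 0.12).

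Of 26 tested genes that Toll-like receptor ligands are known to induce, 2 rose, Nos2 and Ccl5, against 0.228% of all tested loci called on the higher side, and none fell. Nos2, the inducible nitric oxide synthase, was 36.3 and 36.5 FPKM in Ch25h_WT and 70.8 and 72.0 FPKM in Ch25h_KO (difference 0.95, SE 0.051, limma adjusted p = 0.012). The chemokine Ccl5 was 127 and 142 against 333 and 319 FPKM (difference 1.27, SE 0.076, limma adjusted p = 0.016). Estimates were higher for 23 of the 26 genes and lower for Tnf, Acod1 and Marco, against 45.7% and 54.3% of all tested loci. After quantile normalization 21 were higher and 4 lower. At unadjusted p under 0.05, 16 were higher and 3 lower, against 9.38% and 11.5% of all tested loci. The list's median was 0.24, beside -0.01 for all tested loci. Il1rn, the gene of the interleukin-1 receptor antagonist, was 963 and 999 against 1414 and 1438 FPKM (difference 0.54, limma adjusted p = 0.052). It passed after median-ratio scaling (limma adjusted p = 0.0498), among loci averaging 5 FPKM or more (0.021) and with the trend and robust options (7.7e-05). In the other alternatives, such as the replicate block (limma adjusted p = 0.16), Il1rn did not pass. The list was chosen with earlier results of these libraries known, so it is no independent evidence of a direction. With the replicate block, and without Ch25h_WT replicate 1, Ch25h_KO replicate 1 or Ch25h_KO replicate 2, none of the 3 calls over all these lists was left, and without Ch25h_WT replicate 2 there was 1.

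Of 17 tested pattern recognition receptors of other families 1 rose, Zbp1, the sensor of Z-form nucleic acid, from 13.4 and 13.5 to 22.0 and 21.6 FPKM (difference 0.66, SE 0.051, limma adjusted p = 0.035), against 0.228% of all tested loci called on the higher side. It did not pass with a pseudocount of 0.1 (limma adjusted p = 0.054), with no filter on low values (0.062), with the replicate block, or with any of the 4 libraries left out. The formyl peptide receptor Fpr2 was 138 FPKM in both Ch25h_WT libraries against 189 and 185 FPKM (difference 0.44, limma adjusted p = 0.069). Nod1, which senses peptidoglycan fragments in the cytosol, was 23.0 and 22.5 against 17.3 and 18.3 FPKM (difference -0.34, limma adjusted p = 0.099). The list's median was 0.04.

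**Figure D4:**
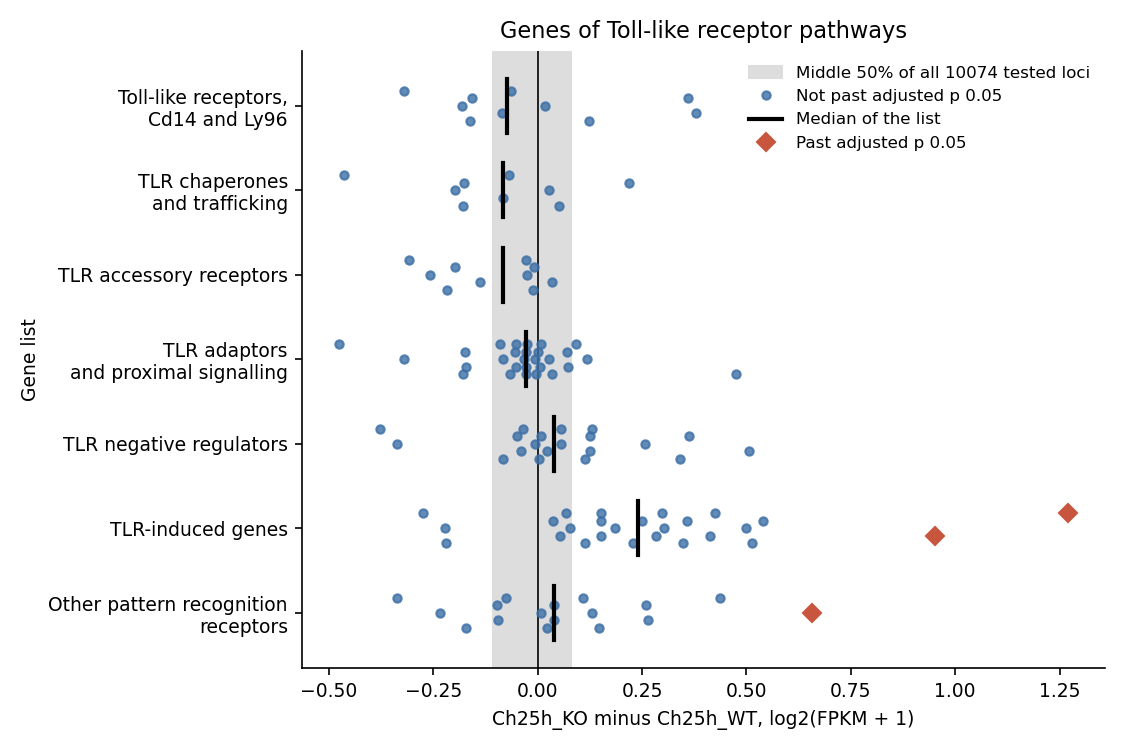
Difference between genotypes on the log2(FPKM + 1) scale for each tested gene (points) of the receptors and of 6 lists of pathway genes, with the median of each list (black bars) and the middle 50% of all 10074 tested loci in grey. Red diamonds passed the adjusted threshold (Ccl5, Nos2 and Zbp1). The medians of the receptors and of the adaptors lie within the grey band and that of the induced genes, at 0.24, lies to its right.

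Markers of other cells were present and differed in level between the groups, and their part in the values above was not tested. B cells, which also express Tlr1, Tlr7, Tlr9 and Cd180, had 6 of 7 markers in the table. These summed to 339 and 342 FPKM in Ch25h_WT and to 302 and 318 FPKM in Ch25h_KO, with 5 lower, 1 higher and none past the threshold. Beside Cd14, the 6 markers of large resident macrophages summed to 523 and 533 against 603 and 624 FPKM, with 6 of 6 higher and none past the threshold. The 6 monocyte markers summed to 156 and 160 against 187 and 200 FPKM, and of these Ly6c2 passed. The 8 neutrophil markers found summed to 71.6 and 82.2 against 116 and 117 FPKM, nearly all from S100a8 and S100a9, and of the granule genes Camp was 0.471 to 1.36 FPKM and Mpo, Elane, Ltf and Ngp were at most 0.292 FPKM. The 8 mast cell and basophil markers summed to 226 and 231 against 159 and 161 FPKM. The 9 loci of erythroid and platelet markers summed to 1659 and 1718 against 2204 and 2082 FPKM, mostly from Pf4 (1625 and 1681 against 2155 and 2028 FPKM). Dendritic cell markers summed to 22.1 to 30.3 FPKM over the 4 libraries, mostly from Cd209a at 18.9 to 27.1 FPKM. Siglech, a marker of plasmacytoid cells, was at 0.0426 FPKM or less. T and NK cell markers summed to 3.49 to 4.95 FPKM, mesothelial and fibroblast markers to 1.21 to 4.16 FPKM, and eosinophil markers to 0.436 to 0.730 FPKM.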

How the data were processed

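RNA-seq values of 4 libraries were used as deposited. Cufflinks 2.2.1, TopHat2 2.0.14, bcl2fastq and mm9 are named, without settings, in the submitters' processing notes. For the annotation, strandedness and filters, the sources used here give nothing. The authors deposited values per locus that fit FPKM in range and decimals, though the file's header names no unit. The 24192 lines were joined into 23735 loci (0 value columns left out), and older symbols were matched through RefSeq (GRCm38.p6), names only.

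On log2(FPKM + 1), limma 3.58.1 (R 4.3.3) fitted genotype as its sole term to the 10074 loci averaging 1 FPKM or more, with Benjamini-Hochberg adjustment over all of them. This scale understates the change of low genes. FPKM are not counts, so no count test was run. Relative depth came from the most common ratio between libraries among low values: 85.9% of 2274 low loci then held whole multiples of 1 fragment (tolerance 0.01, in proportion for larger counts). Implied fragments use the longest GENCODE vM21 coding transcript, so they are approximate, and counting errors cover counting only. The fit was tested on simulated data with independent noise in each library, which cannot test variation shared between libraries.

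Genes named are the 10 receptors, the other mouse Toll-like receptors, and per list the genes of smallest p (at most 6) with fixed defining genes. Tnf, Acod1 and Marco, and the marker genes given by value, were named after their values were seen. The members and lists were chosen with earlier results of these data known. Alternatives were other pseudocounts, filters, scalings and limma options, the replicate block, and each library left out.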

Additional observations from a re-analysis of the deposited data

How the results depend on the processing

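Over 12 alternatives, 117 of 120 values of the 10 genes kept their direction, and the exceptions were Tlr7 (-0.024 to 0.059 with a library left out, reversed without Ch25h_WT replicate 2 at -0.017 and without Ch25h_KO replicate 1) and Ly96 (-0.403 to 0.077, reversed without Ch25h_KO replicate 2). The number of the 10 genes past the threshold was 0 in 10 alternatives, 2 among loci averaging 5 FPKM or more (Cd14 at 0.38, Tlr8 at 0.36) and 3 with limma's trend and robust options (Cd14 at 0.38, Tlr8 at 0.36, Tlr1 at -0.32). Over all loci 44 passed, against 29 with a pseudocount of 0.5, 18 with no filter on low values, 175 among loci averaging 5 FPKM or more, 786 with the trend and robust options, and 13 to 21 with any of the 4 libraries left out, where a lone library is assumed to vary like the other group. Over the pathway lists together 3 passed, against 13, 34 and 5 with the 5 FPKM filter, the trend and robust options and median-ratio scaling, 2 each with a pseudocount of 0.1 and with no filter (Zbp1 lost), and 0 to 1 with a library left out. The causes were not tested. Replicate numbers did not pair the libraries (correlation of deviations 0.012), and with the replicate block 6 loci, 0 of the 10 genes and 0 list genes passed. Few fragments limit Tlr9, at a low level, and Ly96, with a short transcript (counting error of up to 7.7% and 7.8%).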
